A study of Mus musculus with 7 samples.

Results

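Amino acid transporter genes were examined in sorted Pax7-GFP cells of mouse hind leg muscle. The set holds every row of the deposited table whose symbol belongs to the solute carrier families SLC1, SLC3, SLC7, SLC36, SLC38 or SLC43, which gave 44 of 23930 rows. Of these, 41 were carriers or their partner chains, and 3 were "os" genes that share a carrier's symbol without being carriers, namely Slc7a6os, Slc36a1os and Slc36a3os. Slc1a1 was not analysed here. A mean of at least 1 RPM (reads of a gene per 1e+06 reads assigned to the panel) over the 7 libraries was reached by 26 of the 44 rows, which were 25 carriers and Slc7a6os.

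Satellite cells, the stem cells of skeletal muscle, are marked by the transcription factor Pax7. Per the labels, all mice carried an inducible Pax7-GFP reporter on a C57/B6 background and received tamoxifen at 12 weeks of age. Of the libraries, 3 came from mice kept in normocapnia (NC1 to NC3) and 4 from mice kept in hypercapnia (HC1 to HC4). The mice were kept so until 16 weeks of age, that is, for 4 weeks. The methods of the study place the tamoxifen chow in the first part of those 4 weeks, so that labelling overlapped with the exposure. The methods of the study give 10% CO2 for the hypercapnia chamber and sorting 3 days after muscle injury with cardiotoxin, a toxin that destroys myofibers, whereas the labels mention neither the injury nor that time. Because tamoxifen switches the reporter on for good in cells that express Pax7, progeny that have since lost Pax7 stay in the sort. The labels do not say whether the mice of one library were pooled, so p-values here measure the spread between libraries only. The genotype labels carry a different strain number for each library, and the growth label was followed here.

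Cells take up and exchange amino acids through carriers that differ in substrate and in the ion gradient they use. System L exchangers of the SLC7 family bring in leucine and other large neutral amino acids, and they reach the membrane only when paired with the heavy chain encoded by Slc3a2. The SLC38 family couples glutamine and other small neutral amino acids to sodium. Some members of SLC36 and SLC38 sit on the lysosome, where amino acid release is sensed by mTORC1, the kinase complex that restrains autophagy. The study compared hypercapnia with normocapnia to ask how satellite cells and their autophagy respond to CO2.

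The libraries held between 14527445 and 23388710 reads, so that 1 read was worth between 0.0428 and 0.0688 RPM and a floor of 3 reads lay between 0.128 and 0.207 RPM. Transcripts of macrophages as well as of satellite cells were found in every library. The 14 macrophage markers, with most of the reads from Lyz2, summed to between 13491 and 36744 RPM in normocapnia and between 21573 and 26710 RPM in hypercapnia. The 9 satellite cell markers summed to between 154 and 3491 RPM in normocapnia and between 350.5 and 1193 RPM in hypercapnia. Sums of different genes on this panel do not give the shares of the cell types. Pax7 itself ran from 4.34 RPM in NC3 to 268 RPM in NC1. The summed levels of 7 endothelial, 7 fibro-adipogenic, 7 neutrophil, 7 lymphocyte and 6 myofiber markers also overlapped between the groups, and the red blood cell genes were not analysed here. In such mixed material, fewer cells of a type and less RNA per cell cannot be told apart. Xist, which is transcribed from the inactive X chromosome, stood at or above 445 RPM in NC1, NC2, HC1 and HC2 and at or below 0.125 RPM in NC3, HC3 and HC4. The labels give no sex, and the study used mice of both sexes.

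A gene is said to be called where its limma p, before adjustment, was under 0.05 and its fold change exceeded 1.5 up or down, which held for 615 of all 23930 rows (2.57%; 1.43% higher and 1.14% lower in hypercapnia). After Benjamini-Hochberg adjustment limma called 0 rows, against 1114 rows (4.66%) at p under 0.05 before adjustment, 29 with DESeq2 and 0 with edgeR. Of the 44 transporter rows 2 were called, Slc7a7 as higher and Slc38a2 as lower in hypercapnia, which is 4.55% of the set. Among the rows whose mean reached 1 RPM, 594 of 12504 (4.75%) were called, 2.66% higher and 2.1% lower, so that 2 of 26 in the set is not far from the share of the table. The libraries of the 2 groups did not overlap in 5 of these 26 genes (19.2%), against 965 of 12504 rows (7.72%; 4.09% higher and 3.63% lower). Those 5 were Slc7a7, Slc36a2 and Slc38a10, higher in hypercapnia, and Slc38a2 and Slc7a6os, lower in hypercapnia. The exact permutation p given below for each of these 5 genes largely follows from this lack of overlap and is not a separate result.

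**Figure D1:**
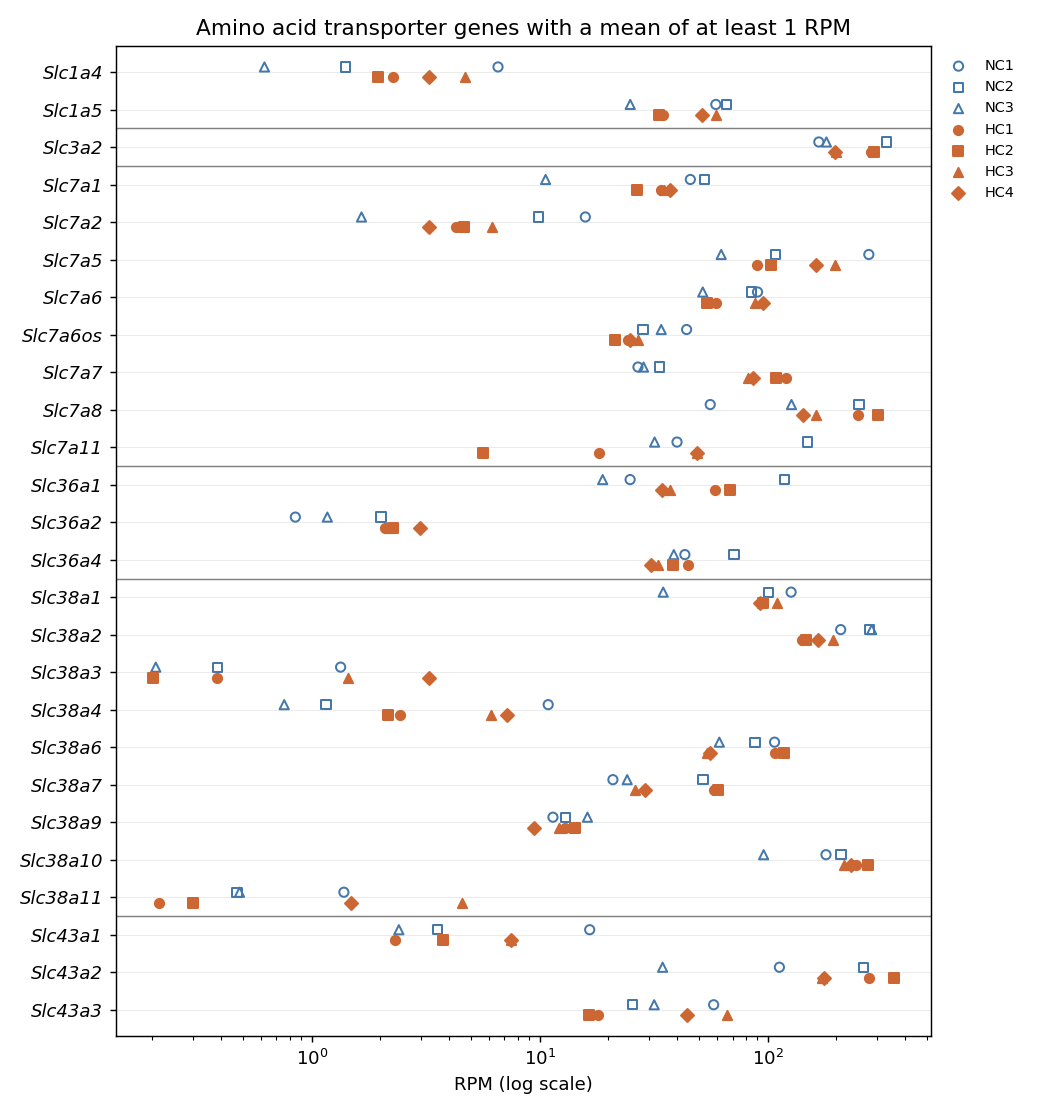
RPM on a log scale for the 26 genes whose mean reached 1 RPM, ordered by family, with 1 marker for each library (open blue, NC1 to NC3; filled orange, HC1 to HC4). Slc7a7 is the gene with the clearest gap between the groups, whereas Slc7a11 is spread from 5.63 RPM in HC2 to 149 RPM in NC2.

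Slc7a7 encodes y+LAT1, an exchanger that sends arginine and lysine out of the cell against neutral amino acids and sodium. It stood at 26.9, 33.5 and 28.5 RPM in NC1 to NC3 and at 120.3, 109, 81.9 and 85.9 RPM in HC1 to HC4. The lowest hypercapnia library therefore lay above 2 times the highest normocapnia library. The log2 fold change was 1.70 (SE 0.17), or 3.24-fold, with a limma p = 8.51e-05 (adjusted p = 0.351) and an exact two-sided permutation p = 0.0286, the smallest that the 35 ways of dividing 7 libraries into 3 and 4 allow.

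Slc7a7 was called under each of the 18 other analyses run, with log2 fold changes between 1.55 and 1.79. Its adjusted p ranged from 0.0212 in DESeq2 to 0.940, so the gene passed adjustment with that tool and not with limma or edgeR. In the libraries with Xist, the log2 difference was 1.89 (2 against 2 libraries), and in those without Xist it was 1.52 (1 normocapnia against 2 hypercapnia libraries). HC1 and HC2 were both above HC3 and HC4 within the hypercapnia group.

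Slc7a7 is active in macrophages as well as in epithelia, so its level was set against macrophage genes inside each library. Per unit of Csf1r, which encodes a receptor of macrophages, the ratio of RPM values was between 0.0624 and 0.0800 in normocapnia and between 0.223 and 0.316 in hypercapnia. The ratio to Cd68, a lysosomal protein of macrophages, did not overlap between the groups either, at 0.0149 to 0.0369 against 0.0497 to 0.0557. By contrast, the ratio to Adgre1, the gene of the macrophage marker F4/80, ran from 0.225 to 0.404 in normocapnia and from 0.253 to 0.541 in hypercapnia and overlapped. Adgre1 was the single macrophage marker called, at 109, 149 and 70.5 RPM against 392, 429, 151 and 184 RPM, and its part in the Slc7a7 result was not tested. These ratios were chosen after the values had been seen and carry no test.

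**Figure D2:**
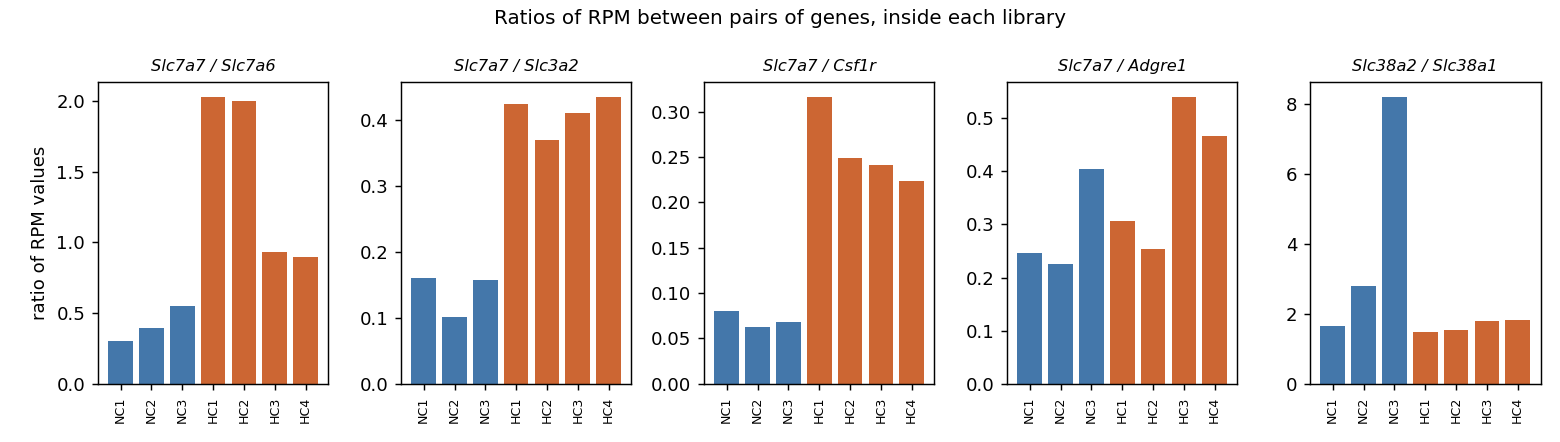
Ratio of RPM values inside each library for 5 pairs of genes, with normocapnia in blue and hypercapnia in orange. The ratios of Slc7a7 to Slc7a6, Slc3a2 and Csf1r do not overlap between the groups, whereas those of Slc7a7 to Adgre1 and of Slc38a2 to Slc38a1 do.

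The partners and the closest relative of Slc7a7 did not show the same gap. Slc3a2, the heavy chain that y+LAT1 and the system L exchangers need, stood at 167, 330.2 and 181 RPM against 283, 293, 199.6 and 197 RPM. Slc7a6, which encodes the related exchanger y+LAT2, stood at 90.1, 85.1 and 51.8 RPM against 59.2, 54.3, 87.8 and 95.7 RPM. For both genes the ranges of the 2 groups overlapped, and their limma p-values were 0.638 and 0.930. The ratio of Slc7a7 to Slc3a2 was between 0.102 and 0.161 in normocapnia and between 0.371 and 0.436 in hypercapnia, and that of Slc7a7 to Slc7a6 was between 0.299 and 0.550 against between 0.897 and 2.03. The other heavy chain, Slc3a1, was near the floor, with at most 0.171 RPM in any library.

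The promoter windows of the 2 called genes are shown because the amino acid response, in which ATF4 binds a composite element of the letters TGATGNAA, is a textbook route by which carriers are regulated. The windows are from RefSeq (GRCm38.p6) and run from 250 bases before to 50 bases after the start, 5′ to 3′ on the minus strand for both genes, with matches to TGATGNAA on either strand in capitals. Slc7a7 has 5 such windows for its different starts, and the one shown, chr14:54417895-54418194, holds 2 matches, whose first bases lie 141 and 1 bases before the start. It is the window with the most matches, since 1 overlapping window holds the second of these sites again and the other 3 hold none. The window of Slc38a2, chr15:96699679-96699978, holds no match. Bases outside the windows were not searched, so a match elsewhere in either gene would be missed.
Slc7a7: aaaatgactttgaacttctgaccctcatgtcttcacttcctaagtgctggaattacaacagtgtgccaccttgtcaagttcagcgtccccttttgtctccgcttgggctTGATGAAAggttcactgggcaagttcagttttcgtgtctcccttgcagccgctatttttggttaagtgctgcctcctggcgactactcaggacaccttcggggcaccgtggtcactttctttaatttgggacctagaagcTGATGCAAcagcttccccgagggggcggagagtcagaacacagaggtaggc
Slc38a2: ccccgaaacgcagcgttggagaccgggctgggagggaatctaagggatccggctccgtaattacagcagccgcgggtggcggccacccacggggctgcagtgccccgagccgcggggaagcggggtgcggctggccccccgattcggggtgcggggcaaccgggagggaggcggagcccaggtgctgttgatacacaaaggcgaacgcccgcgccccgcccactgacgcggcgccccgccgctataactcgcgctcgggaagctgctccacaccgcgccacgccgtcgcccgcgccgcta

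Windows were found for 33 of the 44 genes, 44 windows in all. Of these, 4 windows of 3 genes (9.09%), with 1 site of Slc7a7 counted in 2 of its windows, held TGATGNAA, against 3.97% of all 32851 windows of the same length. Besides Slc7a7, the genes were Slc7a11 and Slc1a4, whose matches are shown with 10 bases on each side. CACGTG, the E-box core bound by the lysosomal regulators TFEB and TFE3 among other factors, was in 7 windows of 7 genes (15.9%) against 7.15% of all windows. Of those 7 genes, Slc36a1, Slc38a7 and Slc43a1 had a mean of at least 1 RPM, and the matches of Slc36a1 and Slc38a7, whose proteins work on the lysosome, are shown as well. The 2 motifs do not overlap each other, and a match is a description of the letters and not a binding site. None of Slc7a11, Slc1a4, Slc36a1 and Slc38a7 was called, and their libraries overlapped between the groups.
Slc7a11, 66 bases before the start: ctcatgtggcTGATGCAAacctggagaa
Slc7a11, 47 bases before the start: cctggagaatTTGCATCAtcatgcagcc
Slc1a4, 4 bases before the start: gcctcctgcgTTGCATCAtctccagcct
Slc36a1, 31 bases before the start: aatggagcggCACGTGacctgggcta
Slc36a1, 3 bases before the start: gagccagcatCACGTGacagggcccg
Slc38a7, 34 bases before the start: gattcaggctCACGTGttacttgagt

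Slc38a2 encodes SNAT2, the sodium-coupled carrier of glutamine, alanine and other small neutral amino acids that cells adapt to their amino acid supply. It stood at 209, 279 and 285 RPM in normocapnia and at 141, 147, 194 and 166 RPM in hypercapnia. The highest hypercapnia library, HC3, lay just under the lowest normocapnia library, NC1. The log2 fold change was -0.66 (SE 0.16), that is 1.58-fold lower, with a limma p = 0.0079 (adjusted p = 0.825) and an exact permutation p = 0.0286. Without NC3 it was -0.58, which misses the fold threshold, and under the other 17 analyses Slc38a2 was called, with values down to -0.90. The log2 difference was -0.74 in the libraries with Xist and -0.66 in those without it. The ratio of Slc38a2 to the macrophage gene Csf1r overlapped between the groups, at 0.520 to 0.680 in normocapnia and 0.337 to 0.570 in hypercapnia.

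On the chromosome Slc38a2 lies directly between Slc38a1 and Slc38a4, with no other coding gene between them. Slc38a1, which encodes the related glutamine carrier SNAT1, stood at 126, 100.5 and 34.8 RPM in normocapnia and at 95.2, 95.7, 109 and 92.2 RPM in hypercapnia. Slc38a4, the carrier SNAT4 that is best known from liver, ran from 0.757 to 10.9 RPM in normocapnia and from 2.16 to 7.18 RPM in hypercapnia. Both neighbours overlapped between the groups. The ratio of Slc38a2 to Slc38a1 reached 8.21 in NC3 and was 1.65 and 2.78 in NC1 and NC2, against between 1.49 and 1.80 in hypercapnia, so the groups overlapped through NC1.

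Slc38a10 encodes a carrier of glutamine, glutamate and other amino acids. It stood at 179.9, 209 and 95.8 RPM in normocapnia and at 243, 276, 216 and 233 RPM in hypercapnia. The groups were apart, but the spread within normocapnia was wide, since NC3 lay far below NC1 and NC2. The log2 fold change was 0.65 (SE 0.29) with a limma p = 0.0674 (adjusted p = 0.915) and an exact permutation p = 0.0286. Because Slc38a10 is named for having groups apart, its exact permutation p largely restates that choice and adds little to the limma result. Without NC3 the log2 fold change was 0.31, and without NC2 it was 0.87 and called. Slc38a10 was also called with Xist as a covariate (0.76) and after quantile normalization (0.64). The log2 difference was 0.41 in the libraries with Xist and 1.22 in those without it.

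The other SLC38 genes overlapped between the groups. Slc38a9, the lysosomal arginine sensor that signals to mTORC1, varied least of the 26 genes, at 11.4, 12.9 and 16.2 RPM against 12.8, 14.3, 12.1 and 9.41 RPM. Its highest library was 1.72 times its lowest. Slc38a7, a lysosomal glutamine exporter, was highest in HC1 and HC2 at 58.3 and 60.2 RPM and lay between 20.9 and 51.9 RPM in the other 5 libraries. Slc38a6 ran from 54.0 to 118 RPM, and Slc38a3 and Slc38a11 stayed at or under 4.56 RPM. Slc38a5 and Slc38a8 did not pass 0.134 RPM in any library.

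**Figure D3:**
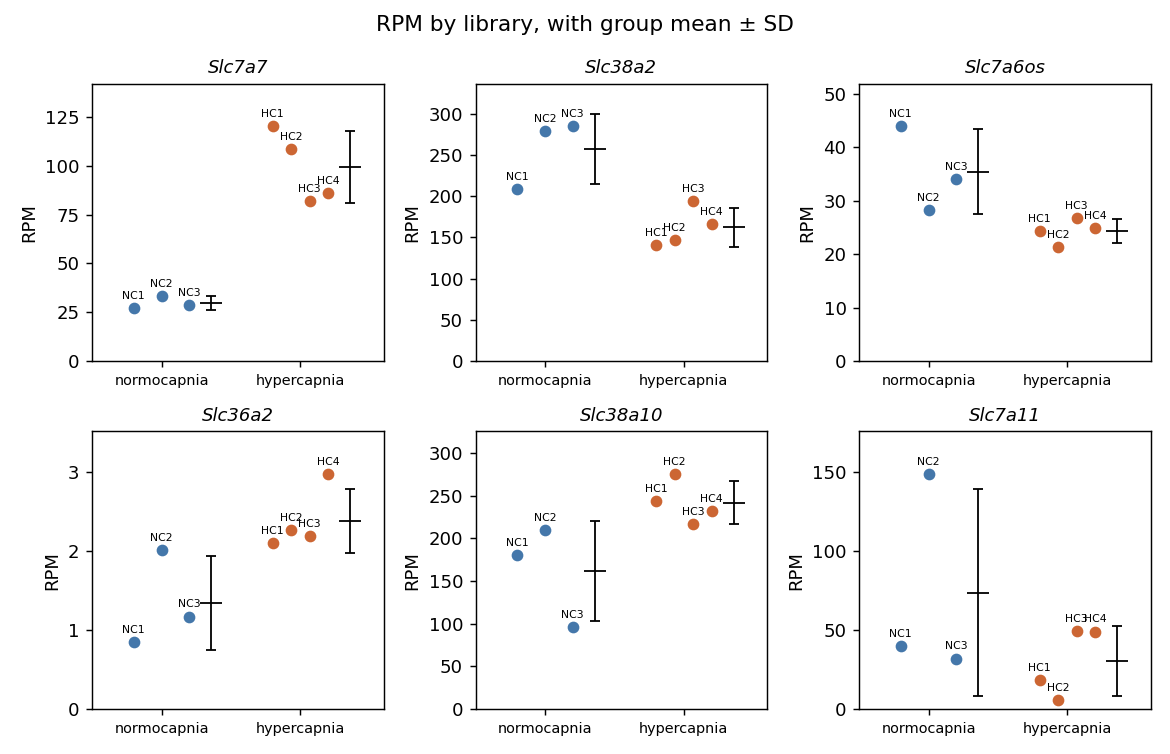
RPM by library on linear axes that start at 0, with group means and SD, for the 5 genes whose groups do not overlap and for Slc7a11. Slc7a7 and Slc38a2 are the 2 called genes, while Slc7a11 has NC2 at 149 RPM and HC2 at 5.63 RPM.

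Several SLC36 carriers move small amino acids together with protons. Slc36a1, which encodes the lysosomal and cell surface carrier PAT1, stood at 24.9, 118 and 18.9 RPM in normocapnia and at 58.7, 68.2, 37.4 and 34.3 RPM in hypercapnia, so that NC2 lay above and NC1 and NC3 below all hypercapnia libraries. Slc36a2, its neighbour on the chromosome that encodes the glycine and proline carrier PAT2, was low, at 0.847, 2.01 and 1.17 RPM against 2.10, 2.26, 2.19 and 2.98 RPM. These values rest on 17 to 49 reads in a library. The groups were apart by a narrow margin, with a log2 fold change of 0.55 (SE 0.19), a limma p = 0.0295 (adjusted p = 0.915) and an exact permutation p = 0.0286. The fold change of so low a gene moves with the pseudocount and was 0.22 at 5 RPM and 0.85 at 0.1 RPM, where Slc36a2 was called, as it was without NC2 (0.75) or HC1 (0.59). After quantile normalization it was 0.09. Slc36a4, which encodes PAT4, ran from 38.7 to 71.1 RPM in normocapnia and from 30.9 to 44.9 RPM in hypercapnia, and Slc36a3 stayed at or under 0.312 RPM.

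Slc7a6os, the coding gene next to Slc7a6 that is not a carrier, stood at 44.0, 28.3 and 34.1 RPM in normocapnia and at 24.4, 21.4, 26.9 and 24.9 RPM in hypercapnia. All hypercapnia libraries lay below those of normocapnia, NC2 being the closest. The log2 fold change was -0.51 (SE 0.16), under the fold threshold, with a limma p = 0.0224 (adjusted p = 0.915) and an exact permutation p = 0.0286. It was called, on p and fold together, in 5 of the 18 other analyses, with -0.70 in DESeq2. The log2 difference was -0.61 in the libraries with Xist and -0.38 in those without it, while that of Slc7a6 was -0.62 and 0.81.

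Among the system L exchangers, Slc7a5 encodes LAT1, the main leucine importer of growing cells, and Slc7a8 encodes LAT2. Slc7a5 stood at 277, 108 and 62.4 RPM in normocapnia and at 89.7, 103, 196 and 162 RPM in hypercapnia. Slc7a8 stood at 55.9, 251 and 127 RPM against 248, 303, 163 and 142 RPM. The 2 genes were ordered oppositely among the libraries of hypercapnia, since HC1 and HC2 were the lower pair for Slc7a5 and the higher pair for Slc7a8. Neither differed between the groups beyond the spread of the libraries, with limma p-values of 0.886 and 0.243.

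The other SLC7 carriers overlapped between the groups as well. Slc7a11, which encodes xCT, the cystine and glutamate exchanger that feeds glutathione synthesis, stood at 39.96, 149 and 31.9 RPM in normocapnia and at 18.2, 5.63, 49.0 and 49.0 RPM in hypercapnia. Its highest library was 26.4 times its lowest, the widest ratio among the 26 genes, whose median ratio was 4.25, beside 3.60 over the 12033 rows of the table with a mean of at least 1 RPM and no zero. With Xist the log2 difference of Slc7a11 was -2.79 and without it 0.61. Slc7a1, which encodes the main carrier of arginine and lysine into cells, ran from 10.6 to 52.8 RPM in normocapnia and from 26.7 to 37.3 RPM in hypercapnia. The related Slc7a2 ran from 1.65 to 15.8 RPM and from 3.25 to 6.19 RPM.

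In the SLC1 family, which holds the glutamate carriers of the nervous system and 2 neutral exchangers, those 2 exchangers were the genes that reached a mean of 1 RPM. Slc1a5, which encodes the glutamine exchanger ASCT2, stood at 59.1, 66.1 and 24.9 RPM against 34.7, 33.3, 59.1 and 51.3 RPM, and Slc1a4, which encodes ASCT1, ran from 0.620 to 6.56 RPM over all libraries. The SLC43 family carries large neutral amino acids by facilitated diffusion. Slc43a2, which encodes LAT4, stood at 112, 264 and 34.6 RPM in normocapnia and at 278, 357, 173 and 176 RPM in hypercapnia, with a limma p of 0.153 and NC2 inside the hypercapnia range. Slc43a1, which encodes LAT3, ran from 2.31 to 16.5 RPM, and Slc43a3, whose product is known as a purine carrier, from 16.4 to 66.4 RPM, both with overlapping groups.

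The remaining 18 rows had means below 1 RPM. Of these, Slc7a10, Slc7a12, Slc7a13 and Slc36a1os were at 0 in all 7 libraries, which allows up to 0.207 RPM in the shallowest one. In 12 rows, those 4 included, no library held more than 3 reads. The glutamate carrier gene Slc1a3 reached 2.06 RPM in HC3, and Slc7a4 reached 1.76 RPM in HC4. Slc7a15 had counts in NC2, HC1 and HC2 only, at 0.342, 0.770 and 0.804 RPM, and Slc1a2 had counts in HC3 and HC4 only, at 0.250 and 0.542 RPM. None of the 18 was called.

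**Figure D4:**
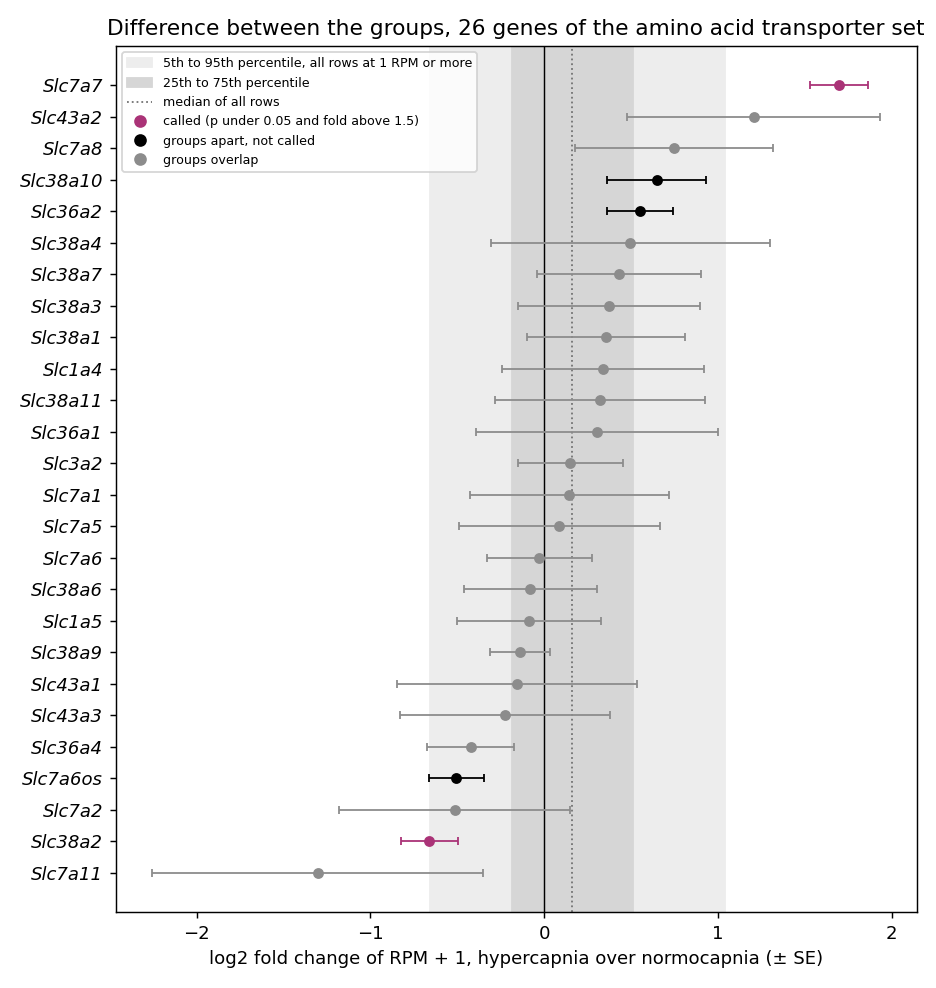
Log2 fold change of RPM + 1, hypercapnia over normocapnia, with SE for the 26 genes whose mean reached 1 RPM, over grey bands for all 12504 rows at that level. Slc7a7, at 1.70, lies outside the 5th to 95th percentile band (-0.66 to 1.04), as do Slc43a2 at 1.21 and Slc7a11 at -1.30 with wide errors, and Slc38a2, at -0.66, lies at its lower edge.

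As a whole the set did not move one way. Of the 26 genes, 15 had a log2 fold change above 0 and 11 below, with Slc7a6os, which is not a carrier, among those below. Their median was 0.15 beside 0.16 over all 12504 rows at that level. The median over all rows was 0.04 when libraries were scaled by median of ratios and -0.01 after quantile normalization, both of which centre the libraries on each other. Under edgeR with a filter the split of the 26 genes turned to 11 above and 15 below. Without NC3 the median was -0.20 for the 26 genes and -0.07 for all rows, and without NC1 it was 0.19 and 0.36. By family, SLC7 had 4 genes above 0 and 4 below, SLC38 had 6 above and 3 below, and SLC36 had 2 above and 1 below.

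Much of the spread lay between libraries of the same group. HC1 and HC2 were both above HC3 and HC4 in 10 of the 26 genes and both below them in 13, together 88.5%, against 68.2% of all 12504 rows. This order matched Xist, which was high in HC1 and HC2, and it went with the summed markers of several cell types. The summed satellite cell markers were at 399 and 350.5 RPM in HC1 and HC2 and at 1193 and 894 RPM in HC3 and HC4, and the endothelial markers at 60.9 and 47.3 RPM against 509 and 398 RPM. The sums of fibro-adipogenic, neutrophil and myofiber markers were likewise lower in HC1 and HC2. The macrophage sum was higher, at 26710 and 23350.3 RPM against 21573 and 21872 RPM. Single genes did not all follow their sums. Col3a1 of the fibro-adipogenic list was higher in HC1 and HC2, and Acta1 of the myofiber list and Lyz2 of the macrophage list were not ordered by these pairs. The splits by Xist and by these markers within hypercapnia cannot be told apart. The difference between the conditions had the same sign in the libraries with and without Xist for 11 of the 26 genes.

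**Figure D5:**
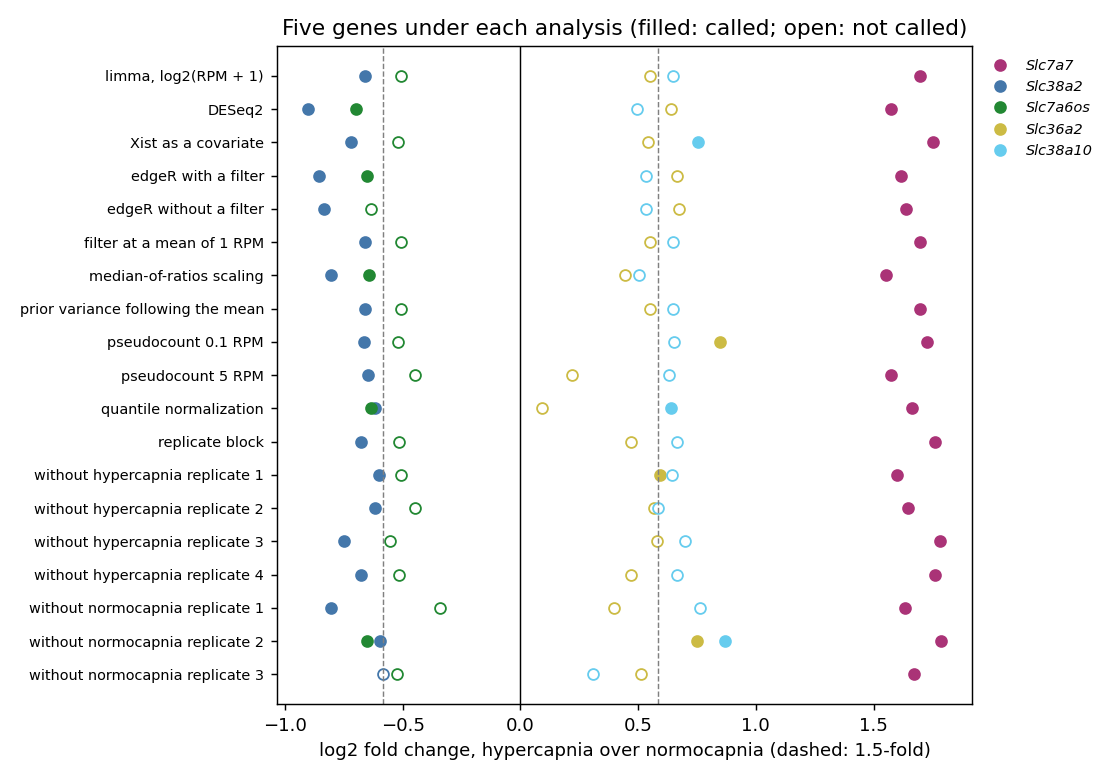
Log2 fold change of the 5 genes whose groups do not overlap (horizontal axis) under each of 19 analyses (vertical axis), with filled markers where the gene was called and dashed lines at 1.5-fold. Slc7a7 is filled throughout and stays between 1.55 and 1.79, Slc38a2 is open only without NC3, and the other 3 are open in most analyses.

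Further genes of amino acid handling were called at shares like those of the table as a whole, of which 2.57% of all rows and 4.75% of the rows at 1 RPM or more were called. Of 32 further amino acid carriers in the table, from the SLC6, SLC15, SLC16, SLC17 and SLC25 families and the lysosome, 1 was called higher and 0 lower. That gene was Pqlc2, which encodes a lysosomal exporter of arginine and lysine, at 9.81, 20.6 and 9.43 RPM in normocapnia and at 27.6, 33.0, 19.1 and 20.7 RPM in hypercapnia. Its log2 fold change was 0.92 (SE 0.34) with a limma p = 0.0367 (adjusted p = 0.915) and an exact permutation p = 0.0571, and NC2 overlapped with HC3. It was not called in DESeq2, in edgeR, after quantile normalization or with median-of-ratios scaling, nor without HC1, HC2, HC4, NC1 or NC3.

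Of 25 genes of the amino acid response, among them the kinase GCN2, ATF4 and their targets, 1 was called higher and 0 lower. Atf3, a transcription factor induced by many stresses, stood at 651, 829.97 and 383 RPM against 967, 1097, 992 and 1065 RPM, with a log2 fold change of 0.80 (SE 0.27), a limma p = 0.0266 (adjusted p = 0.915) and an exact permutation p = 0.0286. The groups of Atf3 did not overlap, which its exact permutation p largely restates. Atf3 was not called in edgeR or with the replicate block, nor without NC1, NC3 or any 1 hypercapnia library. Atf4 itself overlapped between the groups, at 371, 574 and 291 RPM against 378, 389, 489 and 432 RPM. Of 25 enzymes of amino acid metabolism, 0 were called by limma either way and 0 passed adjustment. The groups did not overlap in 0 of 18 further carriers, 1 of 23 response genes and 3 of 19 enzymes with a mean of 1 RPM or more, beside 7.72% of all rows at that level. The response gene was Atf3, and the enzymes were Glud1, lower in hypercapnia, and Bcat2 and Cth, higher, which were named after their values were seen. Over those with a mean of 1 RPM or more, the median log2 fold changes were 0.41 for the carriers, 0.08 for the response genes and 0.38 for the enzymes, beside 0.16 for all rows at that level, a value that itself ran from -0.07 without NC3 to 0.36 without NC1. The medians of these lists were not computed under the alternatives.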

How the data were processed

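Bulk RNA of sorted Pax7-GFP cells was measured in 3 normocapnia and 4 hypercapnia libraries, grouped by their labels. The authors made AmpliSeq libraries, amplified on a panel with 1 product per gene, and their deposited table holds RPM, the reads of a gene per 1e+06 assigned reads. RPM values of different genes also depend on the amplicon, so levels of different genes are not ranked, ratios of 2 genes are compared between libraries only, and mean RPM served for the 1 RPM minimum and to choose which genes to print. The labels name the Transcriptome Analysis Console, while an aligner and a genome build were not stated in the sources used here. The table's title names a time of 40Hr, whereas the methods describe freshly sorted cells. Whole reads were recovered for 100% of values within 0.05 reads, and counts derived from the deposited RPM served the alternatives with edgeR 4.0.16 and DESeq2 1.42.0. No 2 libraries were the same within counting noise. Reads were not tied to molecules, so floors cover counting error only.

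The comparison was fitted in R 4.3.3 with limma 3.58.1 to log2(RPM + 1), using all 23930 rows and no filter, checked on simulated data. A fold change on this scale understates the change of low genes. Calls needed p under 0.05 before adjustment and more than a 1.5-fold change, with Benjamini-Hochberg adjusted p-values over all rows. Members and lists were chosen with earlier results of these data known. Genes given by library are the called genes, those at a mean of 1 RPM or more with groups apart, a list of 13 members, and the highest gene of each family, with fold changes for the first 2 kinds. From the other lists the called genes are given, and Atf4 was added after its values were seen. The alternatives were pseudocounts of 0.1 and 5 RPM, quantile normalization, median-of-ratios scaling, a filter on mean RPM at 1, a prior variance following the mean, edgeR with and without a filter, DESeq2, Xist as a covariate, a replicate block and leaving out each library. Promoter windows were searched in Python on both strands.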

Additional observations from a re-analysis of the deposited data

How the results depend on the processing

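Under 18 alternatives none of Slc7a7, Slc38a2, Slc7a6os, Slc36a2 and Slc38a10 reversed its direction. The rows of the set called higher were 1 in the limma comparison, 3 with Xist as a covariate (Slc38a10 and Slc43a2 added), 2 in edgeR without a filter (Slc1a2, with at most 8 reads in a library, added), 2 with a pseudocount of 0.1 RPM (Slc36a2 added) and 2 with quantile normalization (Slc38a10 added). Leaving out single libraries gave 1 to 5, with 5 without NC2 (Slc36a1, Slc36a2, Slc38a10 and Slc43a2 added), 3 without NC1 (Slc1a4 and Slc38a4 added) and 2 without HC1 (Slc36a2 added). The rows of the set called lower were 1, and 2 in DESeq2, in edgeR with a filter, after quantile normalization and with median-of-ratios scaling (Slc7a6os, which is not a carrier, added) and 2 in edgeR without a filter (Slc7a11 added), and 1 to 2 without single libraries, with 2 without NC2 (Slc7a6os added), and without NC3 the 1 row was Slc7a2 in place of Slc38a2. The median log2 fold change over the 25 carriers was 0.15, and ran from -0.19 without NC3 to 0.20 without single libraries, while it was -0.09 in DESeq2, -0.05 and -0.04 in edgeR with and without a filter, and 0.24 with Xist.

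Other amino acid carriers called higher were 1, but 0 in DESeq2, both edgeR fits, median-of-ratios scaling and quantile normalization, 3 with Xist and 0 to 5 without single libraries (5 without NC2; 0 without HC1, HC2, HC4, NC1 or NC3). Called lower were 0, but 1 (Slc6a6) in DESeq2, in edgeR without a filter and without NC1, so 0 to 1 without single libraries. Response genes called higher were 1, but 0 in both edgeR fits and with the replicate block, and 0 to 5 without single libraries (5 without NC1, 3 without NC2, 0 without any other library). Called lower were 0, but 2 (Cebpb and Nupr1) in DESeq2 and both edgeR fits and 0 to 3 without single libraries (3 without NC1, 1 without NC2). Enzymes called higher were 0, but 1 (Bcat2) with Xist and 0 to 5 without single libraries (5 without NC1, 1 without NC2). Called lower were 0, but 1 (Glud1) in DESeq2 and both edgeR fits, 3 with Xist, 1 (Gclm) with the replicate block and 0 to 1 without single libraries. The cause of these changes was not tested.

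Over all rows, calls ranged from 376 without HC2 to 1990 without NC1, beside 385 without HC1, 1205 without NC2, 1304 in DESeq2, 1316 with Xist, 1049 in edgeR without a filter and 615 in the limma comparison. Of the calls 55.8% were higher in hypercapnia with limma, 39.8% in DESeq2, 36.7% in edgeR with a filter, 38.8% in edgeR without one, 38.1% without NC3 and 75.1% without NC1. The replicate numbers showed no steady pairing, since the correlations of same-numbered deviations were -0.349, 0.503 and -0.0443. The value of 0.503, for NC2 and HC2, was the highest of any normocapnia and hypercapnia pair. These correlations cannot decide whether the libraries were paired by design. With the replicate number as a block, which leaves HC4 without a partner, Slc7a7 was at 1.76 and Slc38a2 at -0.68, both called, beside 598 calls over all rows. A count of 0 in a library allows 3 reads, so genes under about 0.207 RPM could not be compared.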
